A study of Homo sapiens with 6 samples.

Results

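The 6 STAT genes STAT2, STAT3, STAT4, STAT5A, STAT5B and STAT6 were measured in RCC4, an established human clear cell renal cell carcinoma line. They were taken by gene identifier from 61541 annotated genes, without regard to their values. The 2 groups were 3 untreated cultures and 3 cultures given IFNγ at 1000 U/mL with TNF at 25 ng/mL for 24 h, called treated below. Per the labels, every replicate combined 3 culture flasks, and all cells belonged to this 1 line in culture, so the values describe a single tumour cell background. Poly(A) RNA was read directly by nanopore sequencing, with 1 flow cell per library. The comparison asks how exposure to these inflammatory cytokines alters the RNA of the line, and here that of its STAT genes.

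STAT proteins are latent cytoplasmic transcription factors. A cytokine that binds its receptor activates receptor-bound Janus kinases (JAKs), which phosphorylate a STAT on tyrosine, and the STAT dimer then enters the nucleus and binds DNA. Most dimers recognise a short palindrome called GAS, whereas STAT2 acts mainly in a complex with IRF9 that binds the interferon-stimulated response element (ISRE). The JAK-STAT pathway limits itself through SOCS proteins, which are themselves products of STAT target genes. Transcript counts show how much STAT RNA was present, not how much protein was phosphorylated.

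Coordinates are those of the deposited annotation, Ensembl release 105 on GRCh38, 1-based. STAT2 (ENSG00000170581) lies at chr12:56341597-56360167 and STAT6 (ENSG00000166888) at chr12:57095408-57132139, both on the minus strand. STAT5B (ENSG00000173757, chr17:42199177-42276707, minus), STAT5A (ENSG00000126561, chr17:42287547-42311943, plus) and STAT3 (ENSG00000168610, chr17:42313324-42388540, minus) lie side by side. STAT4 (ENSG00000138378) lies at chr2:191029576-191151596 on the minus strand. Every count is a sum over the exons of a gene, UTRs included, and no exonic base of the 6 genes was shared with another gene on the same strand. STAT5A and STAT5B are close paralogs, and assignment of reads between them was not tested.

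The promoters of the 3 genes that rose in treated cells are shown because their RNA moved in the same direction. These are the 250 bases before the start in RefSeq (GRCh38.p14), 5′ to 3′ on the strand of the gene, with the GC box (GGGCGG, or CCGCCC on the other strand) in capitals. They lie at chr12:56360108-56360357 for STAT2, chr17:42388443-42388692 for STAT3 and chr12:57110290-57110539 for STAT6, all on the minus strand.
STAT2: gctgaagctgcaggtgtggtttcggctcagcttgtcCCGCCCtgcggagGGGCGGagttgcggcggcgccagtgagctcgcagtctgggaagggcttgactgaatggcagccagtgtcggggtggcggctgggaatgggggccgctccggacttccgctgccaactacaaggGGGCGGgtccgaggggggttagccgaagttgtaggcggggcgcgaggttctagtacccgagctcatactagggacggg
STAT3: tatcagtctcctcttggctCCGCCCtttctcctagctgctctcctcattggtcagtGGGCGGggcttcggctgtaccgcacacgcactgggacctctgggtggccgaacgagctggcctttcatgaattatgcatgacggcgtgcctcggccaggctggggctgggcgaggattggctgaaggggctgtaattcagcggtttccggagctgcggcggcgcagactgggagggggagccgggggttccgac
STAT6: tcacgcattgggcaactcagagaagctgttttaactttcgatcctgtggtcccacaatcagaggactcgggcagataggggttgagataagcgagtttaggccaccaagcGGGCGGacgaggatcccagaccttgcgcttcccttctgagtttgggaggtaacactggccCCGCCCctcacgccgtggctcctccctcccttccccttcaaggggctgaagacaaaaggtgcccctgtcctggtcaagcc

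STAT2 held 3 GC boxes in this window, STAT3 held 2 and STAT6 held 2, with a GC content of 67.2%, 64.4% and 58.4%. All 6 STAT genes had RefSeq entries, with 9 promoters in all, each searched on both strands from 250 bases before to 50 after the start. The GC box was present in 5 of the 9, against 45% of all 35116 promoters of that length. Those 5 include the promoter of STAT5B, which did not rise, with boxes at -160, -110 and 21 from the start. They also include 1 promoter of STAT5A, which was near 0 counts, so the box was not particular to the genes that rose. The GAS motif TTCNNNGAA was present in 0 of the 9, against 7.66% of all promoters. The ISRE core (GAAA, any 2 bases, GAAA) was present in 0 of the 9, against 3.57%. The form of GAS with 4 bases between its arms, known as a STAT6 site, was present in 1 of the 9, a STAT5A promoter, against 6.44%. Matches to different motifs may overlap, and they describe letters in the window only. The GC box and the wider GAS form were added to the search after the other 2 motifs.

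The ISRE core was present in 13 of the 16 matched genes (81.2%) of a list of 20 textbook targets of STAT2 with IRF9. Over all 27305 genes with a promoter the share was 4.38%. These genes were chosen as targets of a complex that binds the ISRE, so a high share follows from the choice of the list. That list carries the largest changes described below, so an ISRE core of 5 of its genes is printed with 10 bases on each side, with every complete core in the window in capitals, on the plus strand of GRCh38.p14. The windows lie at chr10:89392497-89392526 for IFIT1, chr10:89327831-89327860 for IFIT3, chr21:41420559-41420588 for MX1, chr1:1013374-1013403 for ISG15 and chr1:78620274-78620303 for IFI44L.
IFIT1: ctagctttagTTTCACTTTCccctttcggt
IFIT3: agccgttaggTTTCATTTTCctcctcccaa
MX1: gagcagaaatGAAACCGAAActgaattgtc
ISG15: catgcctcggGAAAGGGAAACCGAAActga
IFI44L: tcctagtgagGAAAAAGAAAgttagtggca
IFIT1 and IFIT3 carried the core in reverse orientation, which reads TTTC at both ends. The ISG15 window holds 2 overlapping cores, and a second IFIT1 core begins in its window and runs past its end. MX1 was too low to be tested (3, 5 and 2 counts untreated, 10, 7 and 16 treated), so it is not among those changes. Its printed core begins 11 bases after the start.

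Library totals ran from 3626000 to 4406296 counts, with 14798 to 15604 genes per library at 1 count or more. CPM below is counts per 1000000 of a library total scaled by TMM. Of 7 leukocyte markers 4, PTPRC and CD3E among them, were at 0 counts in all 6 libraries, and the list summed to 1.36 to 3.13 CPM in untreated and 1.12 to 2.88 CPM in treated libraries. CD68 was another of the 4, but 81.6% of its exonic bases are shared with another gene on the same strand, so its count sets no limit on its level. Of 5 endothelial markers 4 (PECAM1, CDH5, VWF, KDR) were at 0, with sums of at most 0.288 CPM. Of 5 fibroblast markers 3 (COL3A1, DCN, LUM) were at 0, and the list summed to 54.6 to 73.9 CPM in untreated and 27.3 to 48.9 CPM in treated libraries. In that list COL1A1 went from 55.5 ± 9.9 to 36.1 ± 11 CPM without passing the test (edgeR adjusted p = 0.23), and PDGFRB fell from 10.2 ± 0.848 to 2.71 ± 0.126 CPM (SD, n = 3 per group; edgeR adjusted p = 0.0049). All 8 renal carcinoma markers examined were expressed. Of these, PAX8 fell from 145 ± 16.6 to 83.8 ± 11.5 CPM and VIM rose from 4592 ± 312.8 to 7283 ± 904.7 CPM (SD, n = 3 per group; edgeR adjusted p = 0.0316 and 0.0274), and the other 6 were not called. The part of these marker changes in the results below was not tested. Untreated replicate 3 stood apart. Of 10067 genes tested, 855 (8.49%) had there at least 2 times the level of each other untreated library. Any tested gene at 0 in all 3 untreated libraries is included in that count. The labels give no sequencing date or batch, and whether this library differs for a technical reason was not tested.

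Of the 6 STAT genes 3 rose in treated cells, 1 was lower without passing the test, and STAT4 and STAT5A had too few counts to be tested. STAT2 rose most, 6.07-fold, followed by STAT3 at 2.25-fold and STAT6 at 1.97-fold. A gene was called when its adjusted p in the quasi-likelihood test of edgeR was below 0.05, and 8.14% of all genes tested were, 5.58% higher and 2.55% lower. With library totals alone as the scale, the split of all calls moved from 562 higher and 257 lower to 485 higher and 364 lower. On that scale the median log2 change over all genes tested was -0.13, where TMM gave -0.03, and it left the same 3 STAT genes called higher.

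STAT2 is the STAT of the type I and type III interferon receptors. Its counts were 51, 47 and 175 in untreated replicates 1, 2 and 3 and 503, 446 and 541 in the treated replicates. Scaled to library size these were 13.3, 12.1 and 39.6 CPM untreated and 145, 100 and 154 CPM treated. All treated libraries exceeded all untreated ones, and untreated replicate 3 was the highest of its group, with a 95% Poisson interval of 150 to 203 counts that lay above those of replicate 1 (38.0 to 67.1) and replicate 2 (34.5 to 62.5). Such intervals cover counting error only. The group means were 21.7 ± 15.5 and 133 ± 28.6 CPM (SD, n = 3 per group), and the log2 fold change was 2.60 (SE 0.44; edgeR adjusted p = 0.00612). Without untreated replicate 3 the log2 fold change was 3.38 (edgeR adjusted p = 5.41e-06).

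STAT3 transmits signals of the IL-6 family through the receptor subunit gp130. It stood at 55.3, 44 and 43.4 CPM in untreated replicates 1, 2 and 3 and at 114, 103 and 104 CPM in the treated replicates. The treated libraries were all high and close together, and the groups did not overlap. The means were 47.6 ± 6.68 and 107 ± 6.2 CPM (SD, n = 3 per group), and the log2 fold change was 1.17 (SE 0.18; edgeR adjusted p = 0.00417). Unlike in STAT2, untreated replicate 3 was the lowest library.

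STAT6 is the STAT of the IL-4 and IL-13 receptors. Its CPM was 76.6, 79.5 and 94.3 in untreated replicates 1, 2 and 3 and 179, 147 and 169 in the treated replicates. The groups again did not overlap. The means were 83.5 ± 9.47 and 165 ± 16.3 CPM (SD, n = 3 per group), and the log2 fold change was 0.98 (SE 0.18; edgeR adjusted p = 0.00876). Without untreated replicate 2, STAT6 no longer passed the threshold (log2 fold change 0.95, edgeR adjusted p = 0.0664).

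STAT5B responds to growth hormone, prolactin and several interleukins. It stood at 27.6, 26 and 23.1 CPM in untreated replicates 1, 2 and 3 and at 21.6, 16.2 and 15.6 CPM in the treated replicates. All treated libraries lay below all untreated ones, as did those of 11.9% of all genes tested. The log2 fold change was -0.52 (SE 0.23, edgeR adjusted p = 0.239, unadjusted p = 0.0455), from 25.6 ± 2.31 to 17.8 ± 3.29 CPM (SD, n = 3 per group). STAT5B was therefore not called, and the 95% interval of its change in limma voom ran from -1.03 to -0.04. In bulk libraries, fewer cells with a transcript and less transcript per cell cannot be told apart.

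STAT4, a STAT of IL-12 signalling known mainly from lymphocytes, gave 3, 2 and 21 counts in untreated replicates 1, 2 and 3 and 0, 1 and 1 in the treated replicates. Of its 26 untreated counts, 21 came from untreated replicate 3 (95% Poisson interval 13.0 to 32.1). Scaled by library totals without TMM, the ratio of untreated to treated level was 13.2 (95% counting interval 3.3 to 115) over all libraries. It was 3.83 (0.627 to 40.2) without that replicate. The filter on low counts left STAT4 out. With every gene of at least 1 count kept, a fit in which 2.5% of 19158 genes were called lower and 4.43% higher, STAT4 was called lower (edgeR adjusted p = 0.00572), and it was not called there without untreated replicate 3 (edgeR adjusted p = 0.563). Antisense gene STAT4-AS1 and a second annotated gene share 5.67% of its exonic bases on the other strand. Counting used the strand.

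STAT5A, the paralog of STAT5B and a mediator of prolactin signals, had 0, 0 and 0 counts in untreated replicates 1, 2 and 3 and 1, 0 and 1 in the treated replicates. Its level was thus at or under 3 counts, or 0.681 to 0.827 CPM before TMM, in every library. No fold change is given for it.

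**Figure D1:**
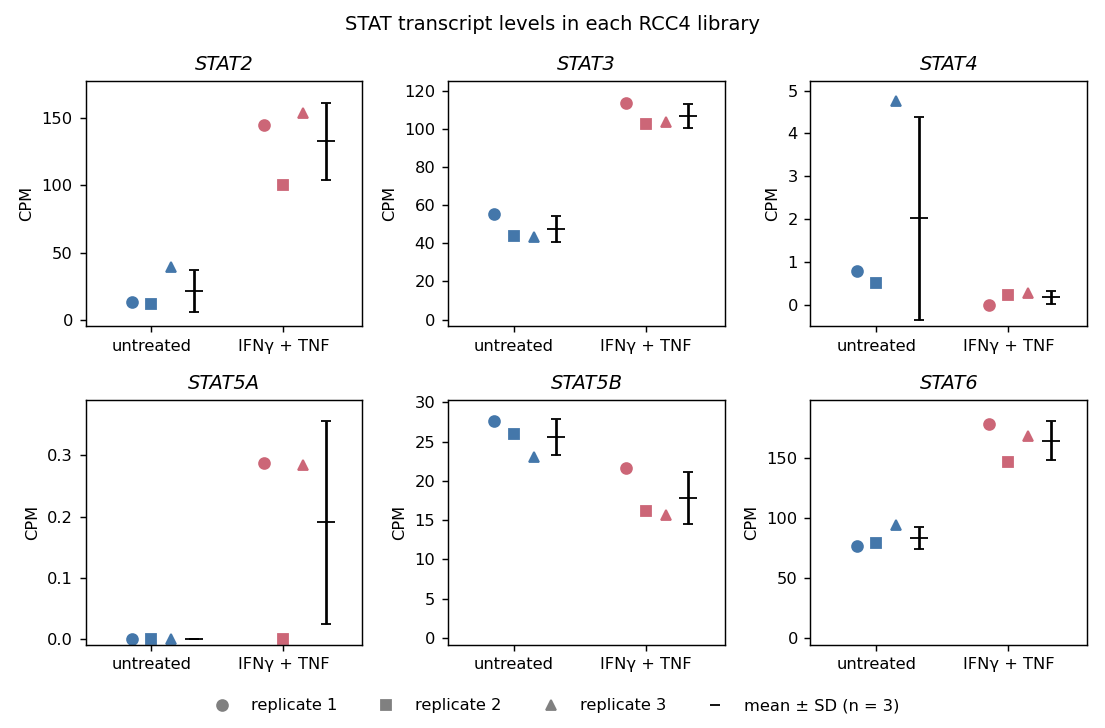
CPM of each STAT gene (vertical axis, linear, own scale per panel) in 3 untreated and 3 treated RCC4 libraries. Symbols mark replicates, and the black bar is the mean ± SD (n = 3). The groups do not overlap for STAT2, STAT3, STAT5B and STAT6, the untreated STAT4 mean rests on replicate 3, and STAT5A is near 0 throughout.

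Groups did not overlap for STAT2, STAT3, STAT5B and STAT6, that is, for the 4 of the 6 STAT genes that were tested, against 25.9% of all genes tested. The change in STAT2 kept its direction and its call in all 14 alternative fits, with log2 fold changes from 2.32 to 3.40, and that in STAT3 did so with values from 1.07 to 1.31. STAT6 ranged from 0.86 to 1.11 and lost its call in 1 of the 14. STAT5B ranged from -0.68 to -0.41 and was called in none, with adjusted p between 0.109 and 0.568 over the edgeR, DESeq2 and limma voom fits.

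**Figure D2:**
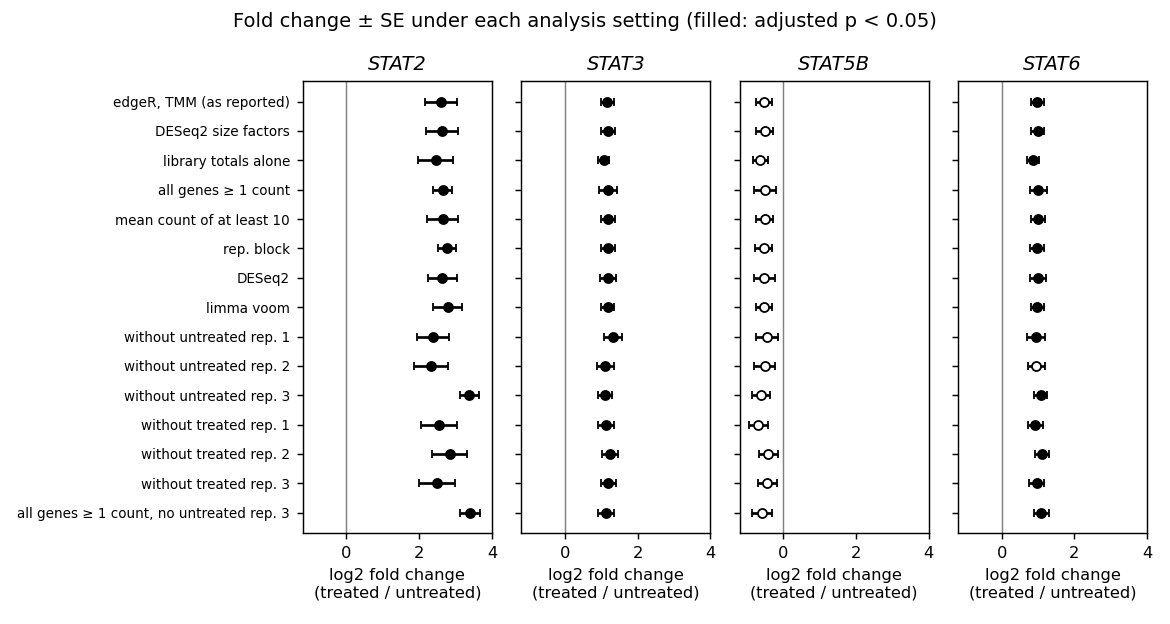
Log2 fold change of STAT2, STAT3, STAT5B and STAT6 (horizontal axis, treated over untreated, point and SE) in the reported fit and 14 alternatives (rows). Filled points have an adjusted p under 0.05. STAT2 and STAT3 are filled in every row, STAT6 is open without untreated replicate 2, and STAT5B is open in every row.

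Levels of different genes were compared as CPM per kb of exonic length. In untreated cells STAT6 was highest at 11.4 ± 1.3 CPM per kb (SD, n = 3), above all libraries of the next gene. STAT3 (4.24 ± 0.596), STAT5B (3.97 ± 0.36) and STAT2 (3.49 ± 2.5) followed in CPM per kb, with ranges over libraries that overlapped. STAT4 was lower still at 0.438 ± 0.515 CPM per kb, and STAT5A was at 0. In treated cells STAT6 (22.6 ± 2.23 CPM per kb) and STAT2 (21.4 ± 4.62 CPM per kb) overlapped at the top. STAT3 followed at 9.55 ± 0.554 CPM per kb and STAT5B after it at 2.76 ± 0.512 CPM per kb, each apart from its neighbours. On this scale STAT2 overlapped STAT3 and STAT5B in untreated cells and STAT6, but not STAT3, in treated cells. In CPM, where a read of a whole RNA molecule counts once whatever its length, untreated STAT2 (12.1 to 39.6 CPM) overlapped STAT5B and lay below STAT3 (43.4 to 55.3 CPM). Treated STAT2 (100 to 154 CPM) then overlapped both STAT6 (147 to 179 CPM) and STAT3 (103 to 114 CPM).

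Within a library, the summed CPM per kb of the 6 genes was also divided into shares. These shares depend on the exonic lengths, such as 6198 bases for STAT2 and 11208 for STAT3. Shares of summed CPM, without division by length, would differ and were not computed. STAT2 held 9.73%, 9.33% and 23.0% of this sum in untreated replicates 1, 2 and 3 and 38.0%, 33.6% and 41.5% in the treated replicates. STAT5B held 19.5%, 19.3% and 12.9% in untreated and 5.46%, 5.23% and 4.06% in treated libraries. STAT6 held 47.6%, 52.1% and 46.5% of the sum before and 39.9%, 41.9% and 38.7% after, more than any other STAT gene in 5 of the 6 libraries. The exception was treated replicate 3, and in CPM STAT6 exceeded STAT2 there too (169 against 154 CPM), as in the other 5 libraries. STAT3 held 22.4%, 18.8% and 13.9% in untreated libraries and 16.6%, 19.2% and 15.5% in treated libraries, so its groups overlapped although its level rose.

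**Figure D3:**
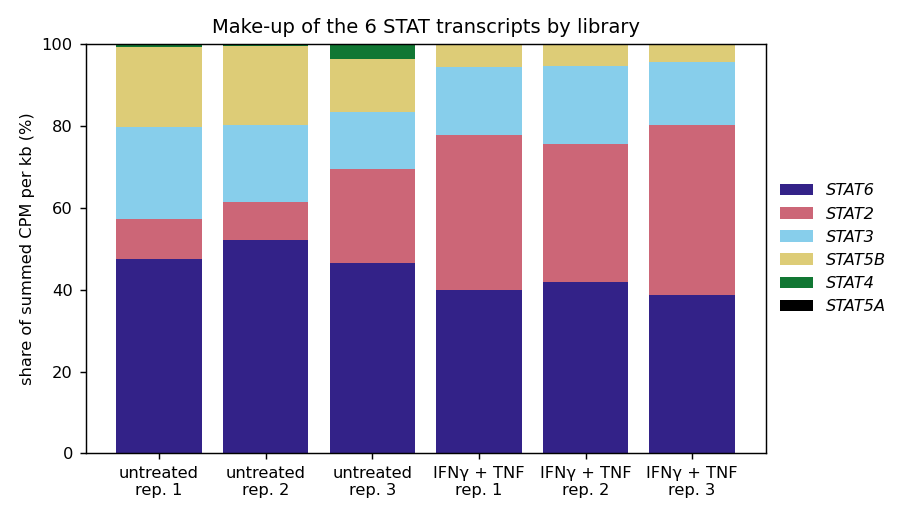
Share of the summed CPM per kb of the 6 STAT genes (vertical axis, percent) in each library (bars). The STAT2 segment is 9.33% to 23.0% of the bar in untreated and 33.6% to 41.5% in treated libraries, and the STAT5B segment is smaller in every treated library.

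Because a ratio of 2 genes in the same library does not depend on how libraries are scaled, the log2 ratios of CPM of the 6 pairs of tested STAT genes were compared between the groups. The log2 ratio of STAT2 to STAT5B was 3.35 higher in treated libraries, that of STAT2 to STAT6 1.84 higher and that of STAT2 to STAT3 1.64 higher. The log2 ratio of STAT3 to STAT5B was 1.71 higher, and that of STAT5B to STAT6 differed by -1.52. In each of these 5 pairs the groups did not overlap, with a 2-sided exact permutation p = 0.1, which is the lowest attainable with 3 libraries per group, or 0.12 when adjusted by Benjamini-Hochberg for the 6 pairs. For STAT3 to STAT6 the log2 ratio was -0.82 ± 0.325 untreated and -0.62 ± 0.1 treated, with groups that overlapped (SD, n = 3 per group; exact permutation p = 0.5).

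Among 6700 genes that had a symbol and averaged 10 CPM or more, the nearest profiles were found by the root mean square difference of log2(CPM + 0.5), centred on each gene's mean over the 6 libraries. Nearest to STAT2 were BTN3A3 (0.245), SP110 (0.274) and GABARAPL1 (0.29), which encode a butyrophilin, a nuclear body protein and an autophagy protein. Like STAT2, and as a choice by profile implies, all 3 were highest of their group in untreated replicate 3. BTN3A3 stood at 5.21, 4.89 and 13.3 CPM in untreated replicates 1, 2 and 3 and at 38.6, 37.3 and 44.9 CPM in the treated replicates. GABARAPL1 stood at 18, 26.3 and 69.9 CPM in untreated and 164, 160 and 215 CPM in treated libraries.

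Near to STAT3 lay CKAP4 (0.098) and INAFM1 (0.118). CKAP4, a membrane protein of the endoplasmic reticulum, went from 234 ± 19 to 486 ± 23.7 CPM (SD, n = 3 per group). Nearest to STAT6 were C19orf12 (0.07), DTX4 (0.086) and C1QTNF6 (0.087), and C19orf12 went from 37.5 ± 2.79 to 71.7 ± 4.55 CPM (SD, n = 3 per group). Nearest to STAT5B were PLEKHG4 (0.032), FJX1 (0.04) and FHL3 (0.05), whose own falls did not pass the edgeR test either (adjusted p = 0.207, 0.15 and 0.291). The distances were smaller for STAT5B, whose profile was flatter, and they are not comparable between the 4 STAT genes.

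**Figure D4:**
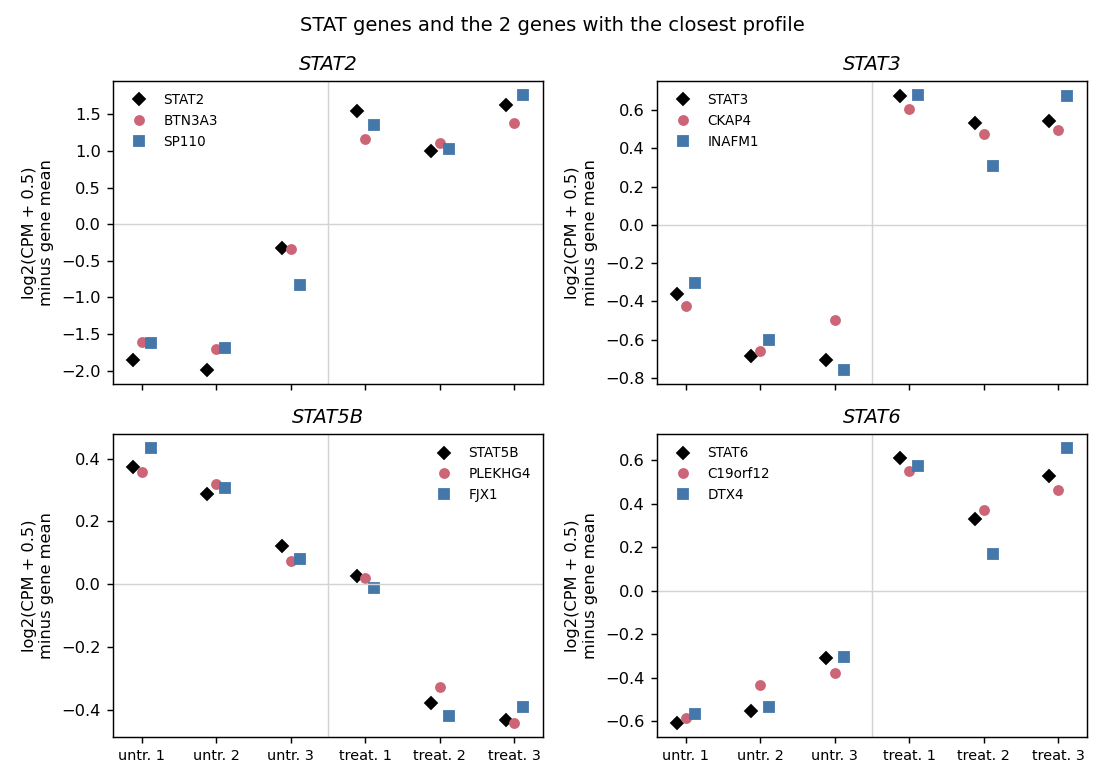
Centred log2(CPM + 0.5) (vertical axis, own scale per panel) in 3 untreated and 3 treated libraries (horizontal axis) for STAT2, STAT3, STAT5B and STAT6 (black diamonds) and the 2 genes with the smallest root mean square difference from each (coloured). In the STAT2 panel all 3 genes lie highest of the untreated libraries in replicate 3.

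The pathway around the STAT genes was read from 10 lists with 113 distinct genes, of which 73 were tested. Of these, 31 rose, 1 fell and 41 did not pass the test, with a median log2 fold change of 0.76. Over all genes tested, 5.58% were called higher and 2.55% lower, with a median of -0.03, and these are the shares against which the list counts below stand. Some genes stand in more than 1 list. Of the 113, 19 genes, IRF9 among them, were at 0 counts in all 6 libraries. Among these, IL2RG, IL11RA, SERPINA3 and NDUFA13 share 50.8%, 32.5%, 31.7% and 21.0% of their exonic bases with other genes on the same strand. As for IRF9 below, a count of 0 sets no limit on their level.

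Of 15 cytokine ligands 5 were tested and 1 rose, with a median log2 fold change of 0.62. That gene was IL6, the ligand that activates STAT3, which went from 22.4, 25.7 and 12.9 CPM in untreated replicates 1, 2 and 3 to 88.0, 86.9 and 82.1 CPM in the treated replicates. The treated libraries were nearly level and lay above all untreated ones (log2 fold change 2.08, edgeR adjusted p = 0.00126). CSF2 and IL11, named after their values were seen because their calls moved, were not called. The untreated libraries held 2, 6 and 10 counts of CSF2 and the treated ones 19, 12 and 35 (edgeR adjusted p = 0.0933), and was called higher in 5 of the 14 alternatives, among them the fit without untreated replicate 3 (edgeR adjusted p = 0.0408). For IL11 the untreated libraries held 129, 99 and 29 counts and the treated ones 40, 42 and 16 (edgeR adjusted p = 0.215), and was called lower in 4 alternatives, among them the fit without untreated replicate 3 (edgeR adjusted p = 0.00392). Of 22 receptor chains 12 were tested, 5 rose and none fell (median log2 fold change 0.68). IL15RA, the IL-15 receptor alpha chain, rose from 7.55 ± 1.11 to 82.2 ± 18.6 CPM, and IL7R, the IL-7 receptor alpha chain, from 6.7 ± 2.2 to 37.6 ± 13.2 CPM (SD, n = 3 per group). Both chains belong to receptors that use STAT5. IL4R, the receptor chain that recruits STAT6, rose from 18.1 ± 1.8 to 56.1 ± 13.8 CPM (SD, n = 3 per group, log2 fold change 1.63, edgeR adjusted p = 0.00301).

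IL12RB1, part of the receptor that activates STAT4, had 0 counts in the 3 untreated libraries and 10, 12 and 14 in the treated replicates. Against a floor of 3 counts per library it was at least 4.28-fold higher. IL12RB2, the other chain of that receptor, was at 0 counts in all 6 libraries. It shares no exonic base with another gene on the same strand. IFNAR2, the type I interferon receptor chain that binds STAT2, rose from 1.38 ± 0.395 to 5.51 ± 0.88 CPM (SD, n = 3 per group, edgeR adjusted p = 0.016). Its call was lost without untreated replicate 2 (edgeR adjusted p = 0.0952), treated replicate 2 (0.0643) or treated replicate 3 (0.0611). Of its exonic bases, 41.4% are shared on the same strand with the read-through gene IFNAR2-IL10RB, so its level is uncertain.

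In the reported fit 2 of the 4 kinases were tested and neither was called. JAK1, shared by most of these receptors, stood at 73.8, 70.8 and 173 CPM in untreated replicates 1, 2 and 3 and at 76.8, 91.9 and 111 CPM in the treated replicates. Untreated replicate 3 lay above all treated libraries and the groups overlapped (log2 fold change -0.19, edgeR adjusted p = 0.862). Without that library the value was 0.36 (edgeR adjusted p = 0.309). TYK2, which pairs with JAK1 at the type I interferon receptor, went from 52.2 ± 8 to 65.2 ± 9.9 CPM (SD, n = 3 per group, edgeR adjusted p = 0.475). JAK2 gave 1, 3 and 3 counts untreated and 2, 20 and 15 treated, and JAK3 gave 0, 0 and 1 untreated and 1, 1 and 1 treated. Both were too low for the filter. JAK2 was tested and called higher in 3 of the 14 alternatives, namely with every gene of at least 1 count kept (edgeR adjusted p = 0.00725), with untreated replicate 3 also left out (0.0427), and without treated replicate 1 (0.0258).

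Among 17 inhibitors 16 were tested, 4 rose and 1 fell, with a median log2 fold change of 0.04. USP18, which blocks the type I interferon receptor at its STAT2-bound chain, stood at 2.35, 2.06 and 1.36 CPM in untreated replicates 1, 2 and 3 and at 68.8, 55 and 130 CPM in the treated replicates (log2 fold change 5.45, edgeR adjusted p = 7.28e-05). SOCS1, which inhibits JAK activity, rose from 4.23 ± 2.1 to 149 ± 25 CPM (SD, n = 3 per group, log2 fold change 5.15, edgeR adjusted p = 3.84e-05). SOCS3, which acts on gp130 receptors and STAT3, rose from 9.11 ± 2.7 to 135 ± 28.6 CPM (SD, n = 3 per group, log2 fold change 3.89). All 3 were lowest of the untreated libraries in replicate 3, the reverse of STAT2, but on few counts. Untreated replicates 1, 2 and 3 held 9, 8 and 6 counts of USP18, 21, 21 and 8 of SOCS1 and 45, 36 and 28 of SOCS3. Whether these differences exceed counting error was not tested.

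SOCS2, a STAT5 target and inhibitor of growth hormone signals, was the gene that fell. It stood at 30.2, 30.9 and 24.4 CPM in untreated replicates 1, 2 and 3 and at 7.19, 10.3 and 11.1 CPM in the treated replicates. The groups did not overlap (log2 fold change -1.58, edgeR adjusted p = 0.00487). CISH, the other STAT5-induced inhibitor of this family, rose from 5.14 ± 1.12 to 12.1 ± 1.49 CPM (SD, n = 3 per group, edgeR adjusted p = 0.037), a call lost in 6 of the 14 alternatives. Those 6 were library totals alone (0.0732) and the fits without untreated replicate 1 (0.11), untreated replicate 2 (0.125), treated replicate 1 (0.0694), treated replicate 2 (0.0922) or treated replicate 3 (0.149), each value an edgeR adjusted p.

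Of 7 partners 5 were tested and 1 rose. NMI, which binds several STAT proteins, went from 14.9, 12.9 and 27.8 CPM in untreated replicates 1, 2 and 3 to 73.4, 139 and 118 CPM in the treated replicates (log2 fold change 2.56, edgeR adjusted p = 0.00205). Like STAT2, NMI was highest of the untreated libraries in replicate 3. IRF9, the DNA-binding partner of STAT2, was listed at 0 counts in all 6 libraries. On the same strand, 42.2% of its exonic bases and 44.7% of its last 1000 share position with another annotated gene (ENSG00000259529), and the file headers set no option to count a read for every gene it overlaps. A count of 0 for IRF9 therefore sets no limit on its level.

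The list of STAT2 and IRF9 targets changed most. Of its 20 genes 18 were tested and 17 rose, with a median log2 fold change of 5.62. It was 5.44 when the untreated level of 6 genes, those with 3 counts or fewer in every untreated library, was set at 3 counts per library. The summed level of the list was 273, 280 and 287 CPM in untreated replicates 1, 2 and 3 and 3848, 3512 and 6927 CPM in the treated replicates. The untreated sums were nearly level, and treated replicate 3 was the highest. HERC5, named after its values were seen as the 1 tested gene that did not pass, gave 0, 0 and 14 counts untreated and 5, 16 and 30 treated (edgeR adjusted p = 0.369). Without untreated replicate 3, 18 genes of the list rose.

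IFI27, a small membrane protein of the interferon response, had 1 count in the untreated libraries together and 1950 in the treated, a ratio of levels of 2070 (95% counting interval 371 to 81700). OAS2, which makes the second messenger that activates RNase L, had 2 and 2298 counts, a ratio of 1220 (337 to 10100). MX2, an antiviral GTPase, had 0 and 361 counts, at least 43.4-fold higher, and XAF1, an antagonist of an apoptosis inhibitor, had 0 and 145 counts, at least 16.3-fold higher, both against 3 counts per library. Of the 18 tested targets, 9 (50%) had in untreated replicate 3 at least 2 times the level of each other untreated library, against 8.49% of all genes tested. Genes at 0 in all 3 untreated libraries meet this rule without any difference, and MX2 and XAF1 are counted in that way. OAS2 met it on 2 counts. IFIT2, IFI44 and IFI44L met it on 0, 1 and 8, on 1, 0 and 6 and on 0, 2 and 5 counts in untreated replicates 1, 2 and 3. HERC5 met it on 0, 0 and 14 counts. Only IFIT3 (11, 12 and 58 counts) and OAS1 (15, 11 and 42 counts) met it on more than a few counts in each untreated library. STAT2 and JAK1 met it too, at levels well above 0. The part of this library in the STAT2 result is given by the fit without it, above.

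Of 18 STAT3 targets 15 were tested, 5 rose and none fell (median log2 fold change 0.67). SOCS3 led these, and CEBPB, a transcription factor of the acute phase response, rose from 70.5 ± 5.58 to 414 ± 146 CPM (SD, n = 3 per group). JUNB, an AP-1 subunit, rose from 69.6 ± 14.5 to 391 ± 67.8 CPM, and VEGFA, the angiogenic growth factor, from 21.1 ± 3.29 to 62.9 ± 13 CPM (SD, n = 3 per group). Of 7 STAT4 targets only 1 was tested and it was not called, and 4 were at 0 counts in all libraries. Of 9 STAT5 targets 7 were tested, 1 rose (CISH) and 1 fell (SOCS2). Of 8 STAT6 targets 4 were tested and 3 rose, namely SOCS1, IL4R and CISH. All 3 also stand in the inhibitor or receptor list. The remaining tested gene, CCL26, was not called (log2 fold change -0.13, edgeR adjusted p = 0.938). Many of these genes also answer to IFNγ, TNF or other factors directly, so the counts describe the lists and not the activity of any STAT.

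**Figure D5:**
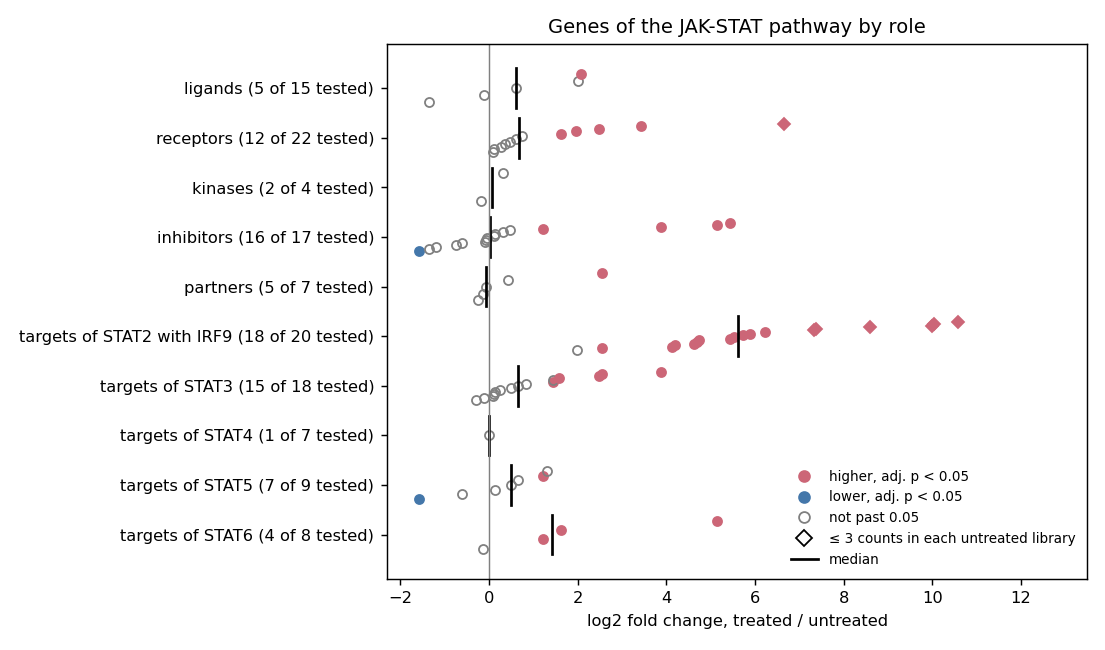
Log2 fold change (horizontal axis, treated over untreated) of each tested gene in 10 lists of the JAK-STAT pathway (rows), with the median of each list as a black line. Colour marks genes past an adjusted p of 0.05, and diamonds are genes with 3 counts or fewer in every untreated library, whose fitted values are no bounds. The targets of STAT2 with IRF9 have the highest median, 5.62.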

How the data were processed

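Direct RNA nanopore reads above quality 7 came from 3 untreated and 3 treated RCC4 libraries, per the labels. The deposited values are raw read counts per gene, made by the authors with featureCounts 2.0.1 in long-read, strand-specific mode on Ensembl release 105, per the file headers. The submitters' processing notes name featureCounts 2.0.0, minimap2 2.24, SAMtools 1.16 and hg38. Alignment names in the headers contain "dmso", and groups were taken from sample titles. Symbols matched 61369 of 61541 identifiers.

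Tests used edgeR 4.0.16 (R 4.3.3) with TMM, filterByExpr and Benjamini-Hochberg adjustment at 0.05, with group as the sole term. SE is the absolute log2 fold change over the square root of F. The p-values weigh each group difference against the spread between these cultures of 1 line. On simulated counts for 10067 genes in this comparison, edgeR recovered 26 of 100 genes changed 2-fold and 76 of 100 changed 4-fold, with 9 false calls. Libraries of a group were distinct (chi-square over genes 3.48 to 24.7 per degree of freedom). Alternatives were DESeq2 1.42.0 and its size factors, limma 3.58.1 voom, library totals alone, other filters, a replicate block and leaving out each library. Dropping untreated replicate 3 with every gene of at least 1 count kept was added after the data were seen.

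The members and lists were chosen with earlier results of these data known. The text names, per list, up to 4 called genes with the largest change, all kinases, IRF9 and, for each STAT gene of at least 10 CPM, the 3 nearest genes with a symbol. Another member of the family and single genes that these rules name are not reported here.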

Additional observations from a re-analysis of the deposited data

How the results depend on the processing

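Of the STAT results, STAT2 and STAT3 were called and STAT5B was not in all 14 alternative fits. STAT6 lost its call without untreated replicate 2, with a range of 0.92 to 1.11 over the 6 fits that each left out 1 library, and the number of STAT genes called higher then ran from 2 to 3. With every gene of at least 1 count kept, 1 STAT gene (STAT4) was called lower, 849 of all genes were called higher and 479 lower, and 2 list genes fell. With untreated replicate 3 left out as well, these were 921, 469 and 2. Leaving out 1 library gave 358 to 733 genes higher, 96 to 445 lower and 1 to 2 list genes lower, with the fewest calls without untreated replicate 2 or treated replicate 3. The replicate numbers are shared between groups, but same-numbered libraries deviated together unevenly (correlations 0.651, -0.0037 and 0.374), so they were not taken as pairs. The fit with the replicate block called 907 genes higher, 606 lower and 3 list genes lower, and no STAT call changed (STAT2 adjusted p = 8.72e-10). JAK1 ran from -0.41 to 0.36 when 1 library was left out, changed sign without untreated replicate 3, and was 0.38 without it in the wider filter. The treated order of STAT4 and STAT5A swapped (2 genes moved) without division by length, and STAT2 overlapped other neighbours in CPM. Of 293 values of the 21 other named genes under these alternatives, 282 kept direction and side of the threshold, 9 lost their call and 2 changed sign. The causes were not tested. Depth limits STAT4 and STAT5A, which held at most 21 and 1 counts in any library. At 3 cultures per group, most 2-fold changes in simulated counts went undetected.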
